A study of Rattus norvegicus with 11 samples.

Results

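The insulin-like growth factor (IGF) family was followed in rat hippocampus through 10 genes: the growth factors Igf1 and Igf2, the receptors Igf1r, Igf2r and Insr, the docking protein Irs1 and the binding proteins Igfbp2, Igfbp3, Igfbp5 and Igfbp6. All probe sets whose single gene symbol on the platform was one of these 10 were taken, which gave 19 probe sets of the 15923 on the array. Total RNA came from 6 samples of rats on a control diet and 5 of rats on a ketogenic diet, a feeding regime rich in fat and poor in carbohydrate that is used against seizures, and each sample was hybridised to 1 array. The labels give the tissue as hippocampus and name no strain, sex, age or length of feeding, and nothing in them states that the samples are different animals. The p-values therefore measure the spread between samples, which may be technical. Levels are log2 intensities after quantile normalization between arrays, and a difference is always ketogenic minus control. A probe set is described as called, risen or fallen where its adjusted p in limma (Benjamini-Hochberg over all tested probe sets) was under 0.05, and probe sets with a mean level under 5.17 over all arrays were not tested. Where a gene has several probe sets they are numbered, and the plots give the array's own identifiers beside these numbers. Of the 19 member probe sets 13 were bright enough to be tested, covering 9 of the 10 genes. Irs1 had its only probe set below that level.

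IGF1 and IGF2 are small secreted proteins related to insulin. Both act through the IGF1 receptor, a tyrosine kinase close in structure to the insulin receptor, which hands the signal to docking proteins such as IRS1 and on to the PI3-kinase and AKT arm and the Ras and MAP kinase arm. The IGF2 receptor, which is also the cation-independent mannose 6-phosphate receptor, has no kinase: it takes IGF2 into the cell for breakdown and carries newly made lysosomal enzymes. In body fluids the growth factors are held by binding proteins that set how much of them reaches a receptor. In the adult brain Igf2 and Igfbp2 are known above all from the meninges and from the choroid plexus, which secretes cerebrospinal fluid, and both tissues lie next to the hippocampus. Igf1r and Insr are made widely by neurons and glia.

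The stretches before the gene starts of the 3 members that the results turn on are shown from RefSeq, assembly GRCr8. The promoter table held all 10 genes. Each window is the 250 bases upstream of an annotated start, 5′ to 3′ on the gene's strand. Both starts of Igf2 are included because its array levels moved with those of Igfbp2. Capitals mark matches, on either strand, to 7 motifs. They are the GC box (GGGCGG), the E-box (CACGTG), the TATA box (TATAAA), the box with the letters CCAAT, the FOXO site (GTAAACA), the cyclic AMP response element (TGACGTCA) and the CLEAR element of lysosomal genes, which is an E-box with GT directly before it and AC directly after it. The CLEAR element was added to the search after the Igf2r window had been read.
Igfbp2 (chr9:81864561-81864810, plus strand): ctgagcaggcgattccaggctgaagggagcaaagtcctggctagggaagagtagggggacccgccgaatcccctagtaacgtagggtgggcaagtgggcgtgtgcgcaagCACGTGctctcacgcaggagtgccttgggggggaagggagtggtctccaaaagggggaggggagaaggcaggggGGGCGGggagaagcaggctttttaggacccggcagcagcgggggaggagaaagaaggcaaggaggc
Igf2r (chr1:50526628-50526877, plus strand): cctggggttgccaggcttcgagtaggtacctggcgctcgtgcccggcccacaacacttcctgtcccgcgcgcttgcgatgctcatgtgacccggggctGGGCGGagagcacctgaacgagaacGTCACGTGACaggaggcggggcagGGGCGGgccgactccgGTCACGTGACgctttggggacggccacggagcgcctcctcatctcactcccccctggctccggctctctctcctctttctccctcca
Igf2, start 1 (chr1:207253981-207254230, minus strand): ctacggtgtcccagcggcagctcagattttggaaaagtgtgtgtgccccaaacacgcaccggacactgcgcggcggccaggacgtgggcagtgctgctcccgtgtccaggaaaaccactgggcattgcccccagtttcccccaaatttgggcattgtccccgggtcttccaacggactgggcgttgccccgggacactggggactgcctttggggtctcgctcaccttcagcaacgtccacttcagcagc
Igf2, start 2 (chr1:207250476-207250725, minus strand): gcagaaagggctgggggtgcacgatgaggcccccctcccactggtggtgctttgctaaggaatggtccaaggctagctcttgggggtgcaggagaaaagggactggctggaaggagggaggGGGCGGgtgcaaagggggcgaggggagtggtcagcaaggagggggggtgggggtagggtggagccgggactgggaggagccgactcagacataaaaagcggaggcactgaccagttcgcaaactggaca

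The Igf2r window held 2 CLEAR elements, beginning 127 and 87 bases before the start, and 2 GC boxes. A CLEAR element was in 68 of 33469 windows of the same length (0.203%), and 3 windows of the table held 2 or more. Igfbp2 had 1 E-box, found in 5.59% of windows, and 1 GC box, found in 30.5%. The window of the Igf2 start 2 held 1 GC box and that of start 1 none of the motifs. Among the members not printed, Igf1r had 1 E-box and 1 GC box, Irs1 2 GC boxes, and Insr and Igfbp6 1 FOXO site each, a motif in 3.21% of windows. None of the 11 member windows held the TATA, CCAAT or cyclic AMP response motif, which were in 12.9%, 34% and 1.59% of windows. These matches describe letters and are not binding sites.

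In the family, 1 probe set fell and 1 rose on the ketogenic diet. Igfbp2 was 2.31-fold lower and 1 of the 2 Igf2r probe sets was 1.25-fold higher. The other 11 tested probe sets were not called. The called share was 15.4% of the 13 tested member probe sets, against 16.5% of all 11899 probe sets tested (1962 called), so the share among members was near the background. By direction, 8.62% of all tested probe sets rose and 7.87% fell. Of the 13, 5 had a positive and 8 a negative difference, with a median of -0.15 where all tested probe sets had a median of 0.00. Their median absolute difference was 0.28, against 0.17 over all. At an unadjusted p under 0.05 there were 4 members, the called 2 with Igf1r and Insr. The diets overlapped in every member probe set. They did not overlap in 6.99% of all tested probe sets, and 0 among 13 is not far from that share. The members' share rests on few probe sets, and between 0 and 4 were called when 1 array at a time was left out. The count was 0 without ketogenic replicate 2 or 4, where 7.07% and 6.70% of all tested probe sets were called. Without ketogenic replicate 3 it was 4, where 26.6% of all were called, so the share over the whole array moved as well.

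**Figure D1:**
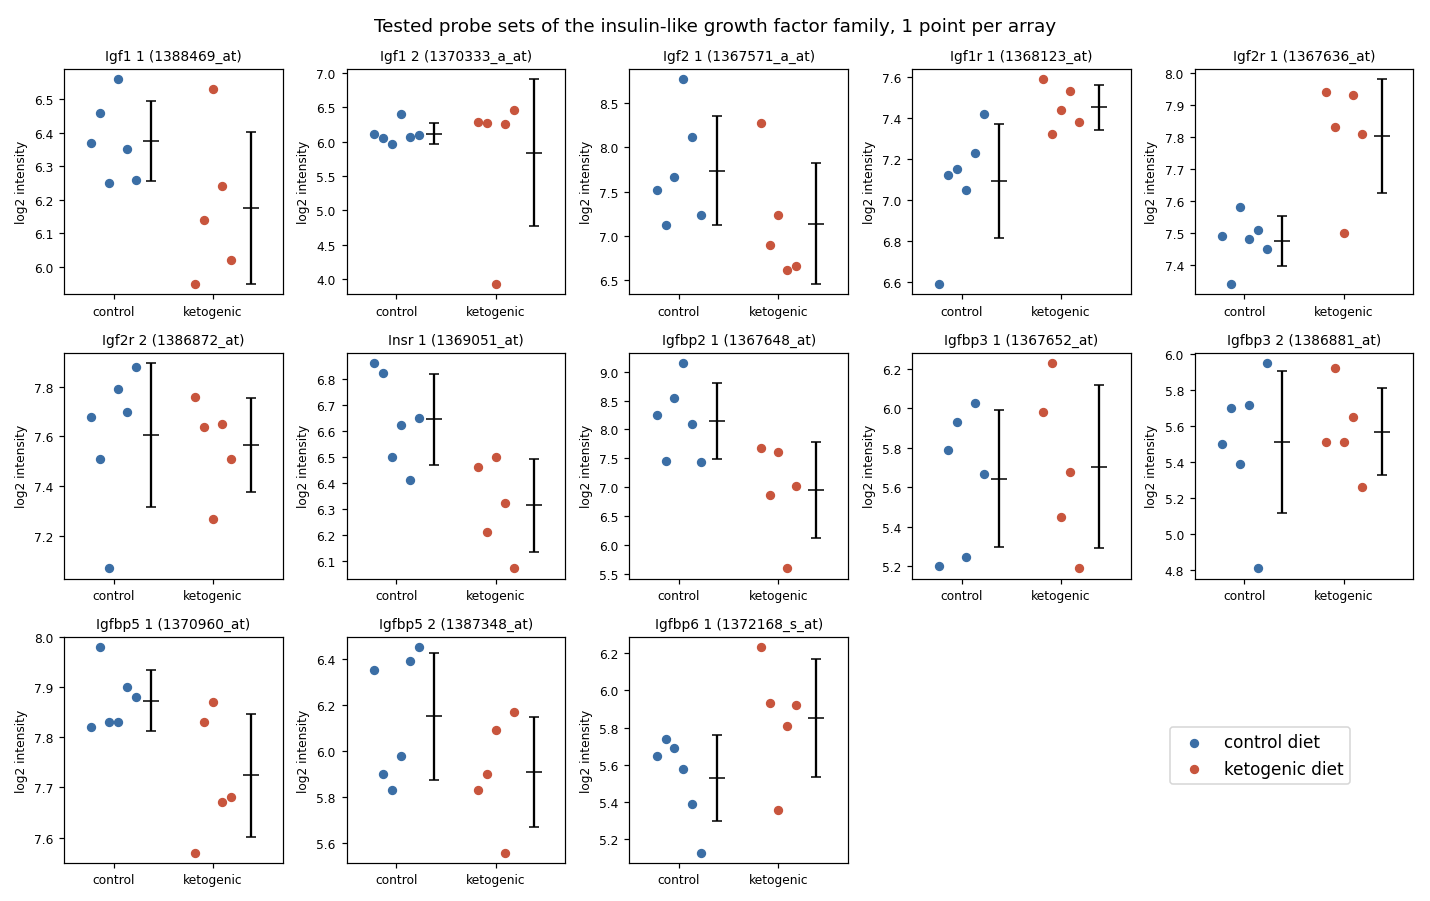
Log2 intensity (y axis) of the 13 tested member probe sets on each array, control diet in blue (6 arrays) and ketogenic diet in red (5 arrays), arrays in order of replicate number, with the mean and SD beside each group in black. Each panel has its own y range; Igfbp2 lies lower on the ketogenic diet with ketogenic replicate 4 lowest at 5.59, and 1 array stands far below the rest in a probe set of Igf1 at 3.93.

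The whole arrays differed between the diets in measures that accompany all results. The log2 ratio of 3 prime to 5 prime control probe sets, a measure of RNA integrity and labelling, was higher on the ketogenic diet by 0.22 for Gapdh (exact permutation test, two-sided, p = 0.00216, the smallest that 6 against 5 arrays allow; adjusted over 4 measures p = 0.00866) and by 0.19 for actin (exact p = 0.0325, adjusted 0.0433). With 1 array left out the Gapdh difference stayed under an adjusted p of 0.05 in 11 of 11 tests, and the actin difference in 3 of 11, those without control replicate 1 or ketogenic replicate 3 or 4 (adjusted p from 0.0190 to 0.0952 over the 11 exact tests). The mean of all 45 spike-in probe sets differed by -0.01 (exact p = 0.729, adjusted 0.729), and that of the 18 hybridisation spike-ins, a set chosen after the data had been seen, by 0.31 (exact p = 0.00649, adjusted 0.0130). With the Gapdh and actin ratios in the fit 6 probe sets were called in all and 0 members or pathway genes. The Gapdh ratio did not overlap between the diets (-0.09 to 0.11 on control arrays, 0.16 to 0.38 on ketogenic arrays). That fit can therefore hardly separate the ratios from the diet, and a call lost in it, here or below, does not tell them apart. The labels name no batch, and a batch that followed the diets cannot be told apart from them. Ketogenic replicate 3 correlated better with control arrays (mean r = 0.961) than with the other ketogenic arrays (0.952). Its sample title ends in an extra letter b that no other title has, and the labels do not say what it means. Markers of hippocampal neurons were present, with Prox1 of granule cells at 8.21 and 8.07 and Wfs1 of CA1 pyramidal cells at 9.72 and 9.67 in control and ketogenic means.

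Among the ligands, neither Igf1 nor Igf2 was called. Igf1, made in brain by neurons and glia and in blood mostly by the liver, had 2 tested probe sets. The first lay between 6.25 and 6.56 on control arrays with a median of 6.36. Ketogenic replicates 1 to 5 read 5.95, 6.14, 6.53, 6.24 and 6.02. Most ketogenic arrays were below the controls, but replicate 3 was among the highest of all arrays, so the groups overlapped. The difference was -0.20 (SE 0.12, adjusted p = 0.240, limma). On the values as deposited, without further scaling, it was -0.36 and was called (adjusted p = 0.0463). With the 3 prime to 5 prime ratios in the fit it was 0.17.

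The second Igf1 probe set went from 5.97 to 6.40 on control arrays with a median of 6.08, and read 6.28, 6.27, 3.93, 6.25 and 6.46 on the ketogenic arrays. Ketogenic replicate 3 alone was far below every other array. That same array was the highest ketogenic array in the first probe set, and over the 11 arrays the deviations of both probe sets from their diet means had r = -0.69. Over the other 10 arrays r was 0.41, so the opposite movement rests on that array. The difference was -0.28 (SE 0.35, adjusted p = 0.610), and 0.20 without ketogenic replicate 3 (adjusted p = 0.187), so its sign rests on that array.

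Igf2, the growth factor expressed from the paternal allele in most tissues, had 4 probe sets of which 1 was tested. In Igf2 1 control arrays lay between 7.12 and 8.77 with a median of 7.59, and the ketogenic arrays at 8.27, 6.90, 7.24, 6.61 and 6.66. Ketogenic replicates 2, 4 and 5 were below every control array, while ketogenic replicate 1 was above 5 of the 6 controls. The difference was -0.60 (SE 0.31, 95% interval -1.26 to 0.06, adjusted p = 0.188), a 1.52-fold lower level that was not called. Without ketogenic replicate 1 it was -0.88 and was called (adjusted p = 0.0478), and over all 25 alternative settings, of which this was the only one that called it, the adjusted p ran from 0.0478 to 0.956. The other 3 probe sets of Igf2 had means between 2.38 and 3.20 in either diet, near the lowest level kept (2.33), and give no usable difference. H19, the imprinted noncoding RNA beside Igf2, differed by -0.21 (adjusted p = 0.409).

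Among the receptors, Igf2r had the called probe set. In Igf2r 1 control arrays lay between 7.34 and 7.58 with a median of 7.48, a narrow band. The ketogenic arrays read 7.94, 7.83, 7.50, 7.93 and 7.81, so that 4 of 5 were above every control and replicate 3 was within them. The mean rose from 7.48 ± 0.08 (SD, n = 6) to 7.80 ± 0.18 (SD, n = 5), by 0.32 (SE 0.08, adjusted p = 0.0225, limma). The call was lost without ketogenic replicate 1, 2 or 4 (adjusted p = 0.0549, 0.0548 and 0.0660) and held without any other single array. With the 3 prime to 5 prime ratios in the fit the difference was 0.08 (adjusted p = 0.989), and with the hybridisation spike-ins 0.45 (adjusted p = 0.0695).

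The other, Igf2r 2, which the platform lists under the same transcript accession, did not follow it. Control arrays lay between 7.07 and 7.88 with a median of 7.69, and the ketogenic arrays at 7.76, 7.64, 7.27, 7.65 and 7.51, well inside the control range. Its difference was -0.04 (SE 0.13, adjusted p = 0.864). The probe sets' differences differed by 0.36 (exact permutation test over arrays, two-sided, p = 0.0455, adjusted p = 0.182 over the 4 pairs of tested probe sets of 1 gene). Their deviations from the diet means had r = 0.28 over 11 arrays, -0.21 without ketogenic replicate 3 and 0.86 without control replicate 3. The rise was seen in 1 of the 2 probe sets of the gene.

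Igf1r and Insr, the signalling receptors, lay on either side of 0 and both just missed the threshold. Igf1r ranged from 6.59 to 7.42 with a median of 7.14 on control arrays, and read 7.59, 7.32, 7.44, 7.53 and 7.38 on ketogenic arrays. All ketogenic arrays were above 5 of the 6 controls, and control replicate 6 lay among them. The difference was 0.36 (SE 0.12, 95% interval 0.10 to 0.62, adjusted p = 0.0521), and 0.43 without control replicate 6 (adjusted p = 0.0262), the only array whose removal brought a call. Insr ranged from 6.41 to 6.86 with a median of 6.64 on control arrays, and read 6.46, 6.21, 6.50, 6.32 and 6.07 on ketogenic arrays. Ketogenic replicates 2, 4 and 5 were below every control. Its difference was -0.33 (SE 0.11, 95% interval -0.57 to -0.09, adjusted p = 0.0549).

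The Insr call depended on the processing. It was past the threshold on the values as deposited (-0.48, adjusted p = 0.0139) and when arrays were centred on their 75th percentile (-0.44, adjusted p = 0.0189). Under the main scaling it was called with array weights (-0.36, adjusted p = 0.0262) and with a stricter filter on dim probe sets (-0.33, adjusted p = 0.0465). Igf1r was called in both of these as well (adjusted p = 0.0297 and 0.0438). Insr was also called without control replicate 5 (-0.38, adjusted p = 0.0480) or ketogenic replicate 3 (-0.38, adjusted p = 0.0268). The sign of Igf1r, Insr and the called Igf2r probe set was the same in each of the 25 alternative settings. Irs1, the docking protein downstream of both kinase receptors, was too dim to be tested. It lay between 4.96 and 5.38 on control arrays with a median of 5.16, and at 4.98, 4.46, 4.89, 4.75 and 4.94 on ketogenic arrays, so 4 of 5 ketogenic arrays were below every control. The difference was -0.36 (SE 0.13), with adjusted p = 0.0993 when all probe sets were tested without the filter.

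**Figure D2:**
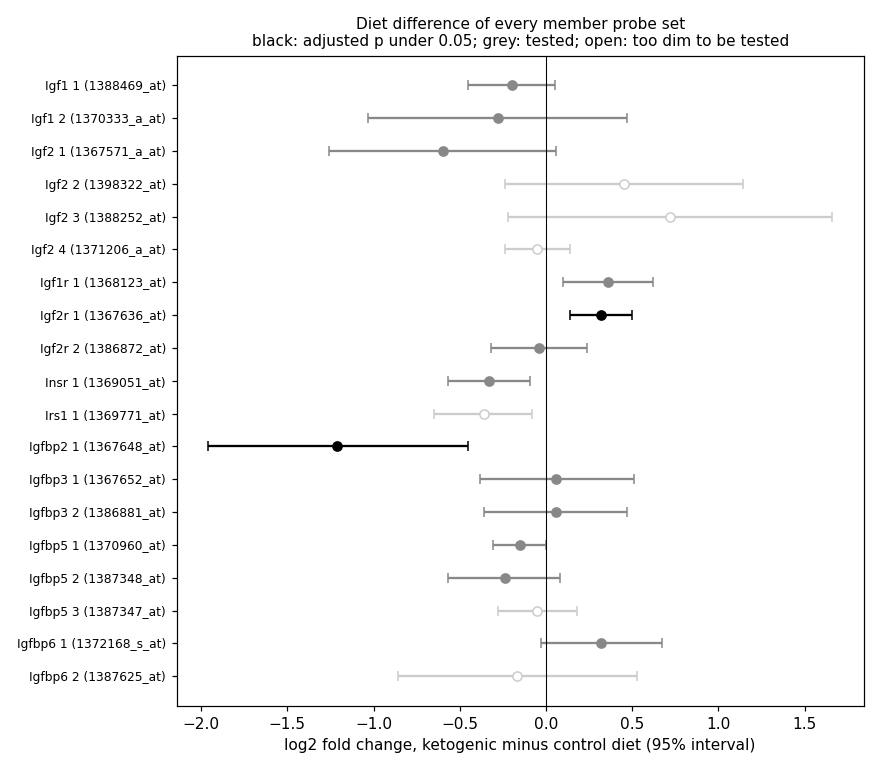
Difference between the diets (x axis, log2 fold change, ketogenic minus control, with its 95% interval from limma) for each of the 19 member probe sets (y axis). Filled black points are the called probe sets, Igf2r 1 at 0.32 and Igfbp2 at -1.21, grey points were tested and not called, and open points were too dim to be tested.

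Of the 4 binding protein genes, Igfbp2 alone was called. Igfbp2, an abundant IGF binding protein of cerebrospinal fluid, has a single probe set. Control arrays lay between 7.43 and 9.15 with a median of 8.18. Ketogenic replicates 1 to 5 read 7.67, 6.86, 7.61, 5.59 and 7.01. Replicates 2, 4 and 5 were below every control array and replicates 1 and 3 were within the lower control range. The mean fell from 8.16 ± 0.66 (SD, n = 6) to 6.95 ± 0.84 (SD, n = 5), a log2 difference of -1.21 (SE 0.35, 95% interval -1.96 to -0.45, adjusted p = 0.0337). This was the widest spread between arrays of any called member. The difference kept its sign in all 25 alternative settings, from -2.15 with the hybridisation spike-ins as a covariate to -0.86 without ketogenic replicate 4.

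The call of Igfbp2 was less steady than its sign. It held in 15 of 25 alternative settings, and without 1 array it held in 4 of 11 fits, those without control replicate 2 or 6 or ketogenic replicate 1 or 3. Without control replicates 1, 3, 4 and 5 the adjusted p was 0.0508, 0.0658, 0.0633 and 0.0552, and without ketogenic replicates 2, 4 and 5 it was 0.0731, 0.0805 and 0.0587. With the 3 prime to 5 prime ratios in the fit the difference was -1.41 and was not called (adjusted p = 0.911).

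Igfbp5, a binding protein that attaches to extracellular matrix and whose gene neighbours Igfbp2 on chromosome 9, had small negative differences. Its first probe set lay between 7.82 and 7.98 on control arrays with a median of 7.86, and at 7.57, 7.83, 7.87, 7.67 and 7.68 on ketogenic arrays. Ketogenic replicates 1, 4 and 5 were below the controls. The difference was -0.15 (SE 0.07, adjusted p = 0.156), and that of the second was -0.24 (SE 0.15, adjusted p = 0.275). The third probe set of Igfbp5 was near the lowest level kept. Igfbp3, the main IGF carrier of blood, had 2 tested probe sets with a difference of 0.06 each (SE 0.21 and 0.19, adjusted p = 0.857 and 0.862). Their 95% intervals were -0.38 to 0.51 and -0.36 to 0.47. Both signs turned negative on the values as deposited (-0.13 and -0.14) and when centred on the 75th percentile (-0.10 and -0.11), so neither has a direction.

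Igfbp6, which binds IGF2 more tightly than IGF1, was tested through its first probe set. Control arrays lay between 5.13 and 5.74 with a median of 5.61, and ketogenic arrays at 6.23, 5.93, 5.36, 5.81 and 5.92. All ketogenic arrays except replicate 3 were above every control. The difference was 0.32 (SE 0.17, adjusted p = 0.192), and without ketogenic replicate 3 it was 0.44 and was called (adjusted p = 0.0449). With the 3 prime to 5 prime ratios in the fit it was -0.10. The second probe set of Igfbp6 was too dim to be tested and had a difference of -0.17 (SE 0.32).

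**Figure D3:**
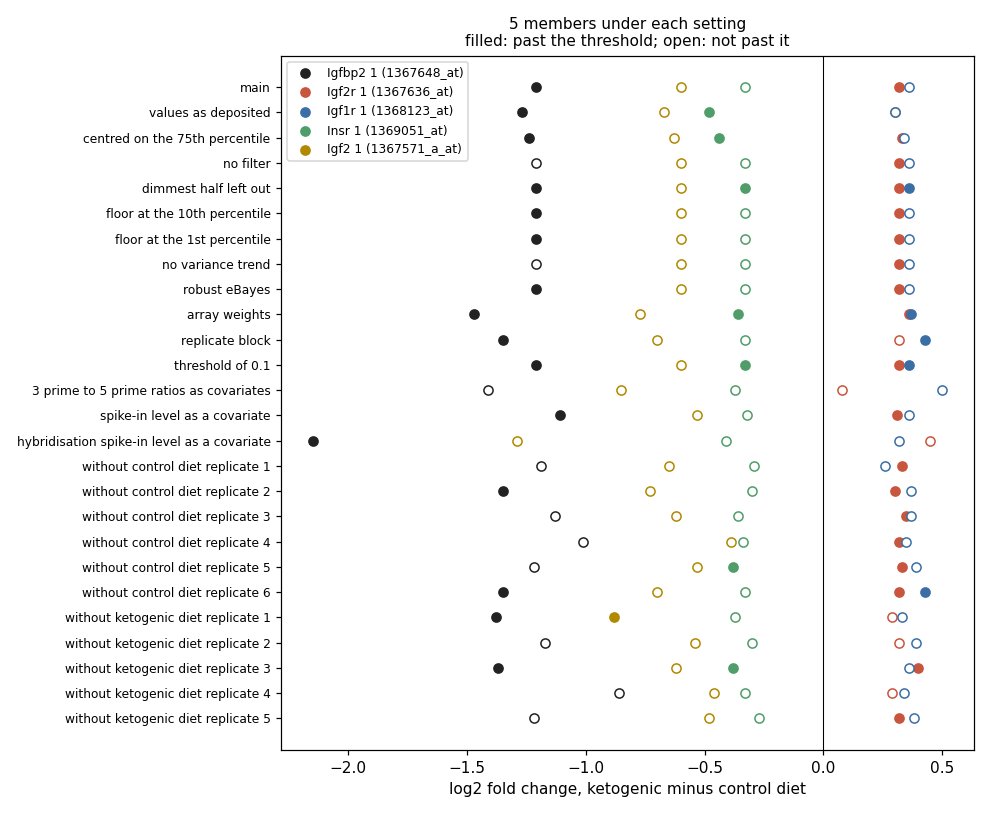
Difference between the diets (x axis, log2 fold change, ketogenic minus control) of 5 members under the main setting and each of 25 alternatives (y axis). Filled points passed the threshold and open points did not, and points at the same value cover each other; Igfbp2 moved between -2.15 and -0.86 and the called Igf2r probe set between 0.08 and 0.45.

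Igf2 and Igfbp2 were set beside markers of the tissues at the border of the hippocampus, since both genes are known from there. In bulk tissue, fewer cells of a type and less RNA per cell cannot be told apart. Of 14 tested markers of meninges and fibroblasts 2 fell, Col1a1, a fibrillar collagen chain (-0.65), and Islr (-0.39), and 0 rose, against 16.9% of all 8397 genes called. The median over the 14 was -0.30, against 0.00 over all genes. Their summed intensity lay between 1775 and 4129 on control arrays and between 1416 and 2961 on ketogenic arrays. Of 10 tested choroid plexus markers 3 fell, the water channel Aqp1 (-0.73), the junction protein Cldn2 (-0.68) and the folate receptor Folr1 (-0.46), and 0 rose, with a median of -0.30. Their summed intensity was 1036 to 2803 on control and 807 to 1243 on ketogenic arrays. None of the tested markers in these lists was at the lowest level kept.

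The highest and the lowest array were the same for Igf2, Igfbp2 and the meningeal markers. Control replicate 4 had the highest Igf2 (8.77), the highest Igfbp2 (9.15) and the highest mean of the meningeal markers, 0.48 above the control mean. Ketogenic replicate 4 had the lowest of each, at 6.61, 5.59 and -0.52. It also had the lowest mean of the vascular (-0.38), astrocyte (-0.17) and microglial (-0.14) markers read below. Control replicate 4 had the highest summed vascular intensity (1452) and the highest oligodendrocyte mean (0.22). Other arrays were at both extremes for the red cell, neuron, interneuron and neighbouring region markers. The shared extremes are therefore not particular to the meninges. Ketogenic replicate 1, the array with high Igf2 (8.27), was the 1 ketogenic array whose meningeal mean was above the control mean, at 0.08. Its Igfbp2, at 7.67, was below the control mean of 8.16. The choroid plexus markers shared the lowest array, ketogenic replicate 4 (-0.41), but not the highest. Their highest array was control replicate 1 (0.46), where Igf2 was 7.52 and Igfbp2 8.25. The part of these markers in the differences of Igf2 and Igfbp2 was not tested.

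**Figure D4:**
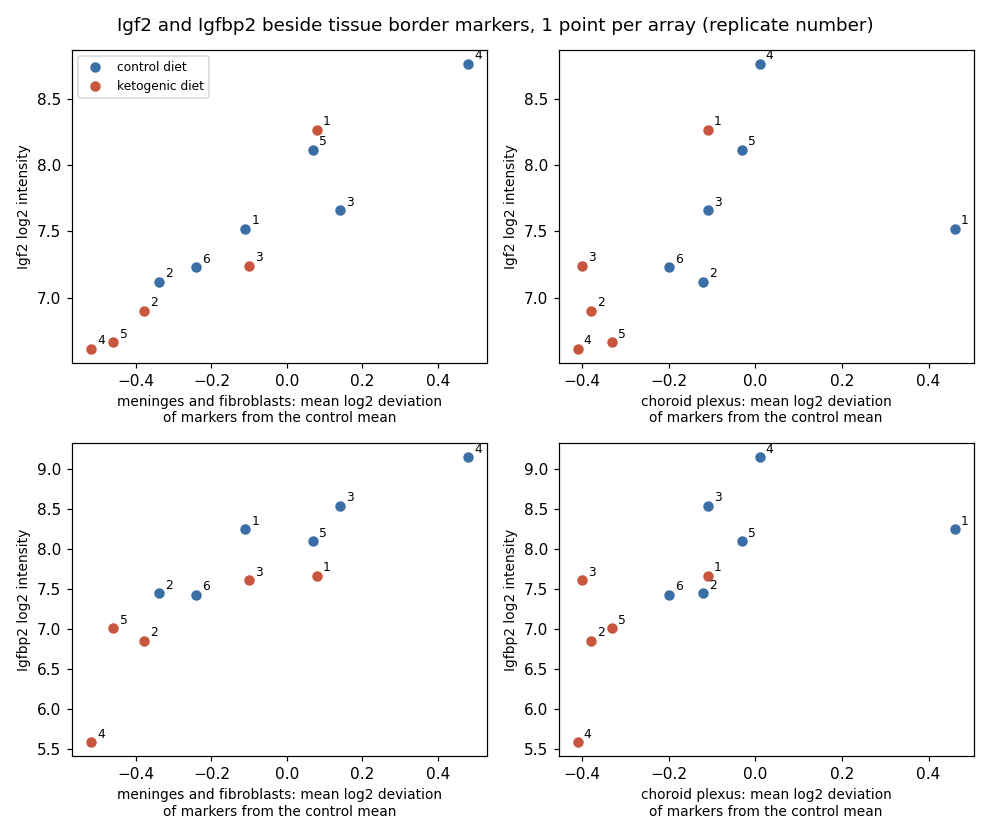
Log2 intensity of Igf2 (top row) and Igfbp2 (bottom row) on the y axis against the mean log2 deviation from the control mean of 14 meningeal and fibroblast markers (left) or 10 choroid plexus markers (right) on the x axis, 1 point per array numbered by replicate, control diet in blue and ketogenic diet in red. The left panels run from ketogenic replicate 4 at -0.52 to control replicate 4 at 0.48, and in the right panels control replicate 1 stands apart at 0.46.

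Markers of other cell types were read against the same 16.9% of all genes called. Of 11 tested vascular markers 1 fell, Slco1a4 (-0.47), and 0 rose, where 8.04% of all genes fell. Their median was -0.21. All 4 tested red cell markers fell, the globins Hbb (-3.16) and Hba-a3 (-1.11), the heme synthesis enzyme Alas2 (-1.08) and the anion exchanger Slc4a1 (-0.64). Of 9 markers of hippocampal pyramidal and granule neurons 2 rose, Camk2a (1.34) and Grik4 (1.04), while 4 had a negative difference, among them Prox1 (-0.14), and the median was 0.11. Their summed intensity was 5827 to 6614 on control and 6820 to 7672 on ketogenic arrays. Without Camk2a, a comparison added after the values were seen, the sums overlapped, at 5145 to 5722 and 5336 to 5966. Of 8 markers of neighbouring brain regions 3 fell, Gabra6 (-0.65), Drd2 (-0.62) and Slc17a6 (-0.43), with a median of -0.13. In that list 2 had a positive difference, Tcf7l2 (0.29) and Ppp1r1b (0.23), neither of them called. Of 8 astrocyte markers 2 fell (median -0.07) and of 7 oligodendrocyte markers 2 fell (median -0.25). Of 7 microglial markers 1 rose and 2 fell (median -0.06). Of 8 interneuron markers (median -0.07) 0 were called in limma, with 1 at an unadjusted p under 0.05. The part of all these markers in the members' differences was not tested.

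For likeness, each gene was compared with Igf2, Igfbp2 and the called Igf2r probe set by the correlation, over the 11 arrays, of its deviations from the diet means. These values are the highest over all tested genes and describe these arrays, which share their scaling. For Igf2 they were Col3a1 (r = 0.93), Rps24 (0.93), C7h12orf75 (0.91), Col1a1 (0.91) and Slc6a20a (0.90), and both collagens were on the meningeal list. For Igfbp2 they were Cdkn1c (0.91), Rnaset2 (0.90), Tubgcp2 (0.89), Opn1sw (0.87) and Aldh1a2 (0.87), of which Aldh1a2, a retinoic acid making enzyme, was on the meningeal list. Igf2 and Igfbp2 had r = 0.77 with each other. For Igf2r they were Ube4b (0.96), Ociad2 (0.94), Slc38a1 (0.92), Cdc23 (0.92) and Cc2d2a (0.90). Without ketogenic replicate 3 these 5 were 0.88, 0.83, 0.76, 0.84 and 0.62, while those named for Igf2 and Igfbp2 were between 0.86 and 0.93. Among members, Igf2r had r = -0.79 with Igfbp5, and -0.69 without that array. Its r of -0.73 with the first Igf1 probe set was -0.29 without that array.

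The pathway around the members was read from 75 further genes, of which 58 had a named probe set and 51 were tested. Of the 51, 3 rose and 9 fell, or 23.5% called against 16.9% of all 8397 genes. Over all genes 8.85% rose and 8.04% fell. The pathway median was -0.08, against 0.00 over all genes. The count was 6 without ketogenic replicate 5, 7 without ketogenic replicate 1 or 2 and 17 without ketogenic replicate 3, and 4 with the hybridisation spike-ins as a covariate. In those settings 10.5%, 10.1%, 7.07%, 26.6% and 6.48% of all tested probe sets were called, in that order.

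Among other ligands and carriers 1 of 4 tested genes fell, Ins1, 1 of the 2 insulin genes of the rat. It ranged from 6.60 to 7.04 with a median of 6.71 on control arrays and read 5.73, 5.98, 6.20, 6.13 and 6.14 on ketogenic arrays, so that the diets did not overlap. The difference was -0.71 (SE 0.11, adjusted p = 0.00257), and it was called in all 11 fits with 1 array left out. Ins2 had a difference of -0.53 (adjusted p = 0.105). Both insulin genes are close copies, so their probe sets may share signal, and a probe set level does not show that insulin is made in this tissue. Igfbp4 differed by -0.13 and Igfbp7 by 0.04, neither of them called.

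Of 4 tested genes for IGF carrier proteases, their inhibitors and insulin breakdown 2 fell. Stc1 encodes a stanniocalcin, a family that inhibits the proteases that free IGF from its carriers, and it was lower by 1.25-fold (-0.32, adjusted p = 0.0244), with no overlap between diets. Ide, the insulin-degrading enzyme, fell by 0.28 (adjusted p = 0.0332) and was called in 4 of 11 fits with 1 array left out. Its other tested probe sets differed by -0.09 and 0.08. Of 4 tested genes of the growth hormone axis 2 fell. Stat5a, a transcription factor activated by the growth hormone receptor, differed by -0.64 (adjusted p = 0.0226) but its ketogenic replicate 3, at 7.45, lay within the controls. Without that array the difference was -0.84 (adjusted p = 0.000376). Socs3, a feedback inhibitor of cytokine and insulin receptors, differed by -0.67 (adjusted p = 0.0267), with ketogenic replicate 3 lowest at 5.03 and the other ketogenic arrays between 6.05 and 6.14. Without replicate 3 it was -0.46 (adjusted p = 0.0102).

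None of the 11 tested receptor-associated and docking proteins was called in limma, and 1 had an unadjusted p under 0.05. The smallest p belonged to Sh2b1 (0.30, adjusted p = 0.149) and Grb14 (0.17, adjusted p = 0.171), both adaptors that bind the insulin receptor, and Irs2 differed by 0.00. In the PI3-kinase and AKT arm 2 of 11 rose and 1 fell. Phlpp1, a phosphatase that removes an activating phosphate from AKT, ranged from 6.49 to 6.75 on control arrays and read 6.91, 7.16, 7.12, 7.44 and 7.23 on ketogenic arrays. It rose by 0.54 (SE 0.10, adjusted p = 0.00460), with every ketogenic array above every control. Inppl1, a phosphatase of the lipid that recruits AKT, fell by 0.38 (adjusted p = 0.0163), and its other tested probe set was also called lower (-0.41, adjusted p = 0.0370). Akt1, the kinase itself, was called higher in its brightest probe set (0.30, adjusted p = 0.00732), while another was called lower (-0.47, adjusted p = 0.0269) and the remaining one differed by 0.18, so the gene has no single direction here.

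Of 13 tested genes downstream of AKT, not all of them its direct targets, 3 fell and 0 rose. The 3 belong to the mTORC1 branch and are not direct targets of AKT. Rps6kb1, the S6 kinase, differed by -0.38 (adjusted p = 0.0242), Eif4ebp1, a repressor of translation initiation, by -0.43 (adjusted p = 0.0285), and Rheb, the small GTPase that switches on mTORC1, by -0.19 (adjusted p = 0.0477). Rheb was called in 3 of 11 fits with 1 array left out, was not called under either other scaling, and its other probe set differed by 0.08. Eif4ebp1 was called in 5 of those 11 fits and Rps6kb1 in 9. In the Ras and MAP kinase arm 1 of 3 tested genes rose, Map2k2, a MAP kinase kinase, by 0.40 (adjusted p = 0.0237). Of the 12 called pathway genes, 4 had another tested probe set to compare with.

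**Figure D5:**
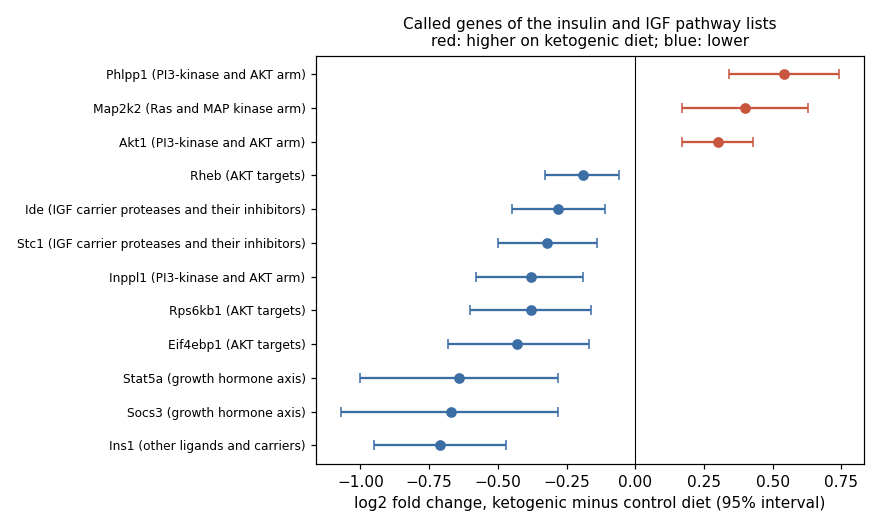
Difference between the diets (x axis, log2 fold change, ketogenic minus control, with its 95% interval from limma) for the 12 called genes of the insulin and IGF pathway lists (y axis, with the list of each gene). The 3 genes in red were higher on the ketogenic diet, from 0.30 for Akt1 to 0.54 for Phlpp1, and the 9 in blue were lower, down to -0.71 for Ins1. The list labelled AKT targets also holds indirect targets.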

How the data were processed

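The authors deposited linear probe set intensities, 1 column per array, and how these intensities were made is not given in the sources used here. Each array had a mean of about 150.0 after trimming 2% of values at each end. Arrays were quantile normalized because the medians of the log2 values spanned 0.24, above a limit of 0.1. Values under the 5th percentile of all (a signal of 5.02) were set to it. The 57 control probe sets were left out, as was the dimmest 25% by mean over all arrays. The diets were compared with limma 3.58.1 in R 4.3.3 (lmFit, eBayes with a variance trend, two-sided), all 11 arrays, with Benjamini-Hochberg adjustment over 11899 probe sets. The number of arrays limits the precision.

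Members came by platform symbol. For the pathway and marker lists, RefSeq symbols replaced older ones by gene identifier (12783 probe sets had 1 symbol, 312 several and 2771 none here), and a gene stood by its brightest tested probe set. Named were all members, called pathway genes, the 2 smallest p of a list without calls, the 5 most alike genes, and called border, vascular and red cell markers. Further markers and Ins2, Igfbp4, Igfbp7 and Irs2 were named after their values were seen. Members, lists and alternatives were chosen with earlier results of these data known. On simulated data for this comparison, 11899 probe sets, 57 of 100 planted differences of 0.5 and 92 of 100 of 1 were called, with 11 false calls. The simulated noise was normal and independent between probe sets, and far fewer differences were planted than the 1962 called in the data. These rates need not hold for the real arrays. The main fit treated the arrays as unpaired. Same-numbered arrays of both diets had correlations of deviations from 0.01 to 0.08, under a limit of 0.1 used for pairing. Arrays with different numbers were not compared, so this check cannot exclude pairing.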

Additional observations from a re-analysis of the deposited data

Results flagged for a closer look

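An array far from the others of its diet was looked for in 38 groups of member values. It was found in 3, and chance alone marks about 1 group in 20, here 1.90. In the second Igf1 probe set ketogenic replicate 3 was at 3.93 and the other ketogenic arrays between 6.25 and 6.46. In the same probe set control replicate 4 was at 6.40 and the other controls between 5.97 and 6.11. In the third Igf2 probe set, too dim to be tested, control replicate 5 was at 2.64 while the other controls were all at the lowest level kept, 2.33. Any single array above a level that all others share is marked, so the rate of 1 in 20 does not hold for that group.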

How the results depend on the processing

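The members called numbered 2 of 13 in the main setting, where 16.5% of all tested probe sets were called. They numbered 4 on the values as deposited (23.6% of all), 4 with array weights (26.4%) and 4 at a threshold of 0.1 (25.8%). With a stricter filter on dim probe sets 4 of 7 were called (20.6% of all), and without a filter 1 of 19 (8.84%). The count was 1 without the variance trend (13.5%) and 0 with the 3 prime to 5 prime ratios in the fit (0.0504%). With the hybridisation spike-ins as a covariate, a setting chosen after seeing the data, it was 1 (6.48%). The count over all probe sets was 3136 with array weights, 3070 at a threshold of 0.1, 6 with the ratios and 771 with the hybridisation spike-ins, and the share of calls that were higher was 38.3% without scaling against 52.3% in the main setting. Pathway genes called numbered 0 with the ratios and 4 with the hybridisation spike-ins. With 1 array left out the counts ran from 797 to 3163 over all probe sets, from 0 to 4 for members and from 6 to 17 for pathway genes. The Gapdh ratio then differed by 0.19 to 0.24, the actin ratio by 0.15 to 0.23, all spike-ins by -0.03 to 0.01 and the hybridisation spike-ins by 0.25 to 0.35. Signs turned for uncalled members. The first Igfbp3 probe set was at -0.13 without scaling and at -0.10 with centring on the 75th percentile, and -0.07 to 0.19 with 1 array left out. The second Igfbp3 probe set was at -0.14 and -0.11 under those scalings, -0.42 with the ratios, -0.07 with the hybridisation spike-ins and -0.08 to 0.14 with 1 array left out. Igf2r 2 was at 0.03 with array weights, 0.02 with the replicate block, 0.14 with the hybridisation spike-ins and -0.15 to 0.04 with 1 array left out. With the ratios the first Igfbp5 probe set was at 0.02, the first of Igfbp6 at -0.10 and the first of Igf1 at 0.17, and with the hybridisation spike-ins the second of Igf1 was at 0.73, and at -0.44 to 0.20 with 1 array left out. The replicate block gave 1816 calls and 2 members, Igfbp2 and Igf1r (0.43, adjusted p = 0.0450), in place of Igf2r (adjusted p = 0.0522). The causes were not tested.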
